A study of Mus musculus with 10 samples.

Results

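The 10 genes of hepcidin production and iron sensing listed here are described in the livers of mice given napabucasin or its vehicle: Hamp, Hamp2, Bmp6, Tfr2, Hfe, Tfrc, Tmprss6, Smad7, Id1 and Slc40a1. They were taken by symbol from a count table of 54532 genes, all 10 were found there, and all 10 were among the 14244 genes that passed the filter on low counts. The set was chosen by measured values of this same comparison: it was built around Hamp, whose lower count in the treated livers was already known. The differences between groups are therefore given for these 10 genes as a description, and nothing is supported with them.

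Napabucasin, also called BBI608, is a small quinone developed against STAT3 signalling. The treated mice received 20 mg per kg of body weight by gavage once a day for 7 days, and the control mice received 1% sodium carboxymethyl cellulose (NaCMC) the same way. Liver RNA of 5 biological replicates in each group was made into poly(A)-selected libraries, 1 per replicate. Strain, sex, age and genotype are not stated in the labels. Transcripts of Xist, which is made from the inactive X chromosome, were found in all 10 libraries (178 to 951 CPM), and no Y-linked gene of 4 examined exceeded 0.342 CPM.

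Hepcidin, the product of Hamp, is the hormone that limits iron entry into the blood. It is secreted by hepatocytes, binds the iron exporter ferroportin (Slc40a1) on macrophages, enterocytes and hepatocytes, and causes it to be internalized and degraded. Hamp transcription is driven by BMP ligands acting through SMAD1, SMAD5 and SMAD4, with HFE and TFR2 as sensors of transferrin-bound iron, and separately by interleukin 6 acting through STAT3. Because bulk liver RNA was sequenced, fewer cells of a type and less RNA per cell cannot be told apart in any value below.

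The mouse carries a duplicate of Hamp, Hamp2. The sequences just before the starts of their main transcripts are shown with motifs of the BMP and STAT3 routes. Binding at these motifs was not measured. Hamp lies on the minus strand of chromosome 7 (30942368 to 30944032, GRCm38), and Hamp2 lies on the same strand (30922372 to 30924681), 17.69 kb away. The stretches below are the 150 bases before the first base of the main GENCODE M21 transcript of each gene, on the minus strand, from RefSeq's promoter windows for GRCm38.p6 (chr7:30944033-30944182 and chr7:30924182-30924331). That of Hamp lies just outside the annotated gene. The stretch of Hamp2 lies inside its annotated gene, which reaches further upstream, to 30924681. Capitals mark the letters GGCGCC, the core of the BMP-responsive element, with the bases aligned to it in Hamp2, and the STAT motif match TTCTTGGAA.
Hamp: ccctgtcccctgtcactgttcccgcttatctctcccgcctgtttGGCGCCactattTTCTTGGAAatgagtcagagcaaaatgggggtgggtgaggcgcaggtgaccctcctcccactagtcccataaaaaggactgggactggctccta
Hamp2: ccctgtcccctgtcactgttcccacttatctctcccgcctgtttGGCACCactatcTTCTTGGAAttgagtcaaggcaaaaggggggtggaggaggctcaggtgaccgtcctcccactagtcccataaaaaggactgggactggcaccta
The 2 stretches were identical at 138 of 150 aligned bases (92%) with no gap. Within the BMP-responsive letters they differed by 1 substitution, G48A, with Hamp as the reference and positions counted from 1 at the 5′ end of the printed stretch. Both stretches held TTCTTGGAA from position 57, 94 bases before the start. The GGCGCC of Hamp began 106 bases before the start and did not overlap it. Across 32851 promoter windows of 300 bases, read on both strands, GGCGCC was found in 11.87%, the looser STAT motif TTCNNNGAA in 8.298% and TTCTTGGAA in 0.417%. Of the 6 members with a window in that table (Hamp, Hamp2, Tfr2, Tfrc, Hfe and Bmp6), Hamp and Tfrc held GGCGCC and Hamp and Hamp2 held TTCNNNGAA.

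Levels are given as CPM, counts scaled to a fixed library total, on library sizes scaled by the TMM method (trimmed mean of M values), unless FPKM is named. Library totals ran from 14124484 to 17759967 counts, so that 1 read was worth 0.0459 to 0.0855 CPM. Albumin (Alb) measured 28363 to 124696 CPM over the 10 libraries, and pancreatic acinar markers, summed over 6 genes, stayed at or under 5.29 CPM. Mitochondrial genes took 19.0% of counts in vehicle replicate 1 and 7.03% to 8.78% in the other vehicle libraries. In napabucasin replicates 1 to 5 they took 19.9%, 15.3%, 10.3%, 9.03% and 11.4%. The medians were 7.08% in vehicle and 11.4% in napabucasin libraries, and the part of this difference in the values below was not tested. The largest shares of rRNA genes were in napabucasin replicates 1 and 2 (1.09% each) and vehicle replicate 2 (0.912%).

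Per kilobase of gene length, the members covered a wide range, which the deposited FPKM values show. Hamp was highest (1951 ± 1173 FPKM in vehicle and 533 ± 261 FPKM in napabucasin livers, SD, n = 5 each), followed by Hamp2 (473 ± 287 and 306 ± 175 FPKM). Their ranges overlapped in both groups. Tfr2 (99.0 ± 18.0 and 92.6 ± 22.2 FPKM) and Tmprss6 (94.2 ± 27.5 and 87.0 ± 19.7 FPKM), both hepatocyte membrane proteins, formed the next level and could not be placed in order. Slc40a1 (23.0 ± 8.59 FPKM in vehicle), Id1 (22.9 ± 8.79 FPKM) and Hfe (14.11 ± 1.67 FPKM) came next, with overlap between Slc40a1 and Id1 and between Id1 and Hfe in both groups. Tfrc (4.73 ± 1.53 FPKM), Smad7 (2.00 ± 0.487 FPKM) and Bmp6 (0.765 ± 0.150 FPKM) followed without overlap between neighbours in either group.

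Hamp was lower in napabucasin livers, and its vehicle values were widely spread. The 5 vehicle libraries, replicates 1 to 5, measured 473, 1251, 1414, 352 and 547 CPM. The 5 napabucasin libraries measured 208, 79.0, 214, 223 and 385 CPM. Apart from 1, the treated libraries lay below every vehicle library: napabucasin replicate 5 lay above vehicle replicate 4, so the groups overlapped. The means were 807 ± 488 and 222 ± 109 CPM (SD, n = 5 each), a level 3.64-fold lower by the fitted log2 fold change of -1.86 (SE 0.45, 95% interval -2.83 to -0.90). Without the 3 libraries with the highest rRNA share, vehicle replicate 2 and napabucasin replicates 1 and 2, the log2 fold change was -1.33. Summed over 6 hepatocyte markers, the level was 42919 to 150355 CPM in vehicle and 70780 to 125589 CPM in napabucasin libraries, and the lowest, vehicle replicate 2, was the library with 1251 CPM of Hamp. That sum is mostly Alb. Of the 6 markers 5 had fitted differences below 0, between -0.11 for Ttr and -0.44 for Hnf4a, a hepatocyte transcription factor. Vehicle replicate 2 had the lowest Alb, Apoa1 and Ttr of all 10 libraries (28363, 6377 and 3020 CPM). It measured 542 CPM of Hnf4a, 2866 CPM of Apob and 1750 CPM of Trf, each within the range of the other vehicle libraries. The part of hepatocyte content in the Hamp difference was not tested.

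Hamp2, the duplicate, was spread within groups as much as between them. Vehicle replicates 1 to 5 measured 539, 137, 305, 114 and 294 CPM, and napabucasin replicates 121, 161, 153, 108 and 362 CPM. The highest treated library, replicate 5, exceeded 4 of the 5 vehicle libraries. The log2 fold change was -0.62 (SE 0.43, 95% interval -1.54 to 0.30), and it was -0.12 without the 2 libraries with the highest mitochondrial share, -0.24 without vehicle replicate 1 and -1.03 without napabucasin replicate 5.

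The duplicates did not keep a fixed proportion. Hamp supplied 46.7%, 90.1%, 82.2%, 75.5% and 65.0% of the summed CPM of both genes in vehicle replicates 1 to 5, and 63.3%, 32.9%, 58.3%, 67.3% and 51.6% in napabucasin replicates. The lowest share was in napabucasin replicate 2, the only treated library in which Hamp2 exceeded Hamp; vehicle replicate 1 was the only such control library. Summed, the genes measured 1085 ± 485 CPM among controls and 403 ± 198 CPM in treated livers (SD, n = 5 each). Their transcripts are alike (92.4% identical over the main transcript of each), and 16.6% of the 50-base words of Hamp occur in Hamp2. A read of 50 bases from such a word would match both genes, while a longer read may reach a differing base. The separate counts therefore carry some uncertainty, and its size was not tested.

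**Figure D1:**
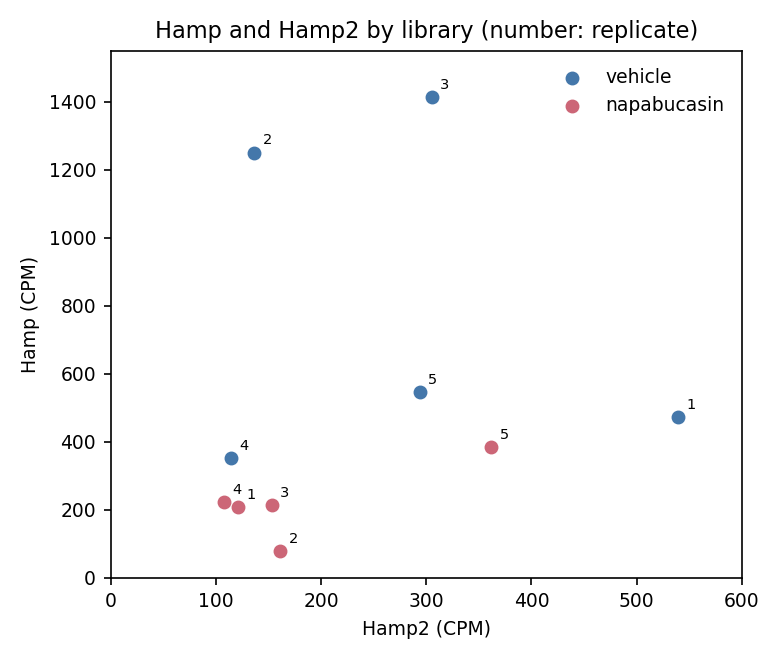
Hamp (vertical axis, CPM) against Hamp2 (horizontal axis, CPM) in each of the 10 libraries, numbered by replicate. Vehicle replicates 2 and 3 stand at 1251 and 1414 CPM of Hamp with 137 and 305 CPM of Hamp2, and 4 treated libraries lie together at the lower left.

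Bmp6, the ligand that liver sinusoidal endothelial cells release when iron is plentiful, was scarce, and its groups overlapped. It measured 2.57, 3.54, 2.34, 3.71 and 2.87 CPM among controls and 3.24, 2.71, 2.54, 4.86 and 2.60 CPM in treated livers. The treated range held 4 of the 5 vehicle values. The log2 fold change was 0.08 (SE 0.27, 95% interval -0.50 to 0.67), and it turned to -0.12 without napabucasin replicate 4. All 8 sinusoidal endothelial markers had fitted differences above 0, with sums of 66.3 to 217 CPM in vehicle and 172 to 284 CPM in napabucasin libraries, and their part in the Bmp6 values was not tested.

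The sensors of transferrin-bound iron on hepatocytes, TFR2 and HFE, had overlapping groups for both genes. Tfr2 measured 394, 353, 554, 418 and 442 CPM among controls and 571, 361, 354, 316 and 436 CPM in treated livers. Its log2 fold change was -0.08 (SE 0.21, 95% interval -0.54 to 0.38). That value was 0.02 without vehicle replicate 3, -0.24 without napabucasin replicate 1 and -0.28 without the 3 libraries with the highest rRNA share. Hfe measured 41.9, 56.3, 56.5, 49.9 and 49.2 CPM among controls and 63.5, 61.2, 56.2, 61.7 and 44.3 CPM in treated livers. Treated replicates 1, 2 and 4 lay above every vehicle library, the other two within the vehicle range, and the log2 fold change was 0.18 (SE 0.16, 95% interval -0.16 to 0.52), or 0.10 without vehicle replicate 1.

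Tfrc, the transferrin receptor that brings iron into cells and whose mRNA is stabilized by iron regulatory proteins when cellular iron is low, was higher in napabucasin livers. Vehicle replicates 1 to 5 measured 42.4, 36.8, 18.0, 26.4 and 23.98 CPM, and napabucasin replicates 55.1, 48.4, 42.1, 59.9 and 32.4 CPM. Treated replicates 1, 2 and 4 lay above every vehicle library, and replicates 3 and 5 lay within the vehicle range. The means were 29.5 ± 9.89 and 47.5 ± 10.8 CPM (SD, n = 5 each), with a log2 fold change of 0.69 (SE 0.24, 95% interval 0.17 to 1.21).

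Tfrc is also abundant in erythroid precursors and in dividing lymphocytes. Summed over 8 erythroid markers, the level was 17.1 to 195 CPM among controls and 21.8 to 165 CPM in napabucasin libraries. Summed over 4 B cell markers it was 9.26 to 16.5 CPM among controls and 26.5 to 42.3 CPM in napabucasin libraries, and over 5 T cell markers 5.13 to 9.46 CPM and 8.83 to 27.0 CPM. All 9 of these lymphocyte genes lay on the higher side, and their part in the Tfrc difference was not tested.

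Tmprss6 and Smad7, both brakes on Hamp, had fitted differences whose intervals included 0. Tmprss6 encodes matriptase-2, the hepatocyte protease that cleaves the BMP co-receptor hemojuvelin, and it measured 292, 211, 303, 329 and 454 CPM among controls and 393, 240, 260, 243 and 346 CPM in treated livers. All treated values lay within the vehicle range. The log2 fold change was -0.10 (SE 0.23, 95% interval -0.60 to 0.40). That value was 0.06 without vehicle replicate 5, -0.23 without napabucasin replicate 1 and -0.27 without the 3 libraries with the highest rRNA share. Smad7, an inhibitory SMAD that is itself induced by BMP signals, measured 10.7, 11.9, 6.47, 7.19 and 9.33 CPM among controls and 8.48, 6.71, 7.85, 9.67 and 7.05 CPM in treated livers. Its treated values also lay within the vehicle range, with a log2 fold change of -0.20 (SE 0.21, 95% interval -0.66 to 0.26), or -0.08 without vehicle replicate 2.

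Id1, an inhibitor of helix-loop-helix transcription factors and a standard readout of BMP-SMAD activity in the liver, was lower in napabucasin livers (chromosome 2, 152736251 to 152737410). Vehicle replicates 1 to 5 measured 26.4, 42.1, 17.6, 16.7 and 30.9 CPM, and napabucasin replicates 18.3, 10.8, 11.7, 9.67 and 18.3 CPM. Treated replicates 2, 3 and 4 lay below every vehicle library, and the other two lay just above vehicle replicates 3 and 4. The means were 26.7 ± 10.4 and 13.7 ± 4.22 CPM (SD, n = 5 each), with a log2 fold change of -0.96 (SE 0.28, 95% interval -1.56 to -0.36) and -0.74 without vehicle replicate 2. Vehicle replicate 3, the highest in Hamp, was the next to lowest of the vehicle libraries in Id1.

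Slc40a1, the exporter that hepcidin removes from the cell surface, varied more within groups than between them. It measured 84.7, 304, 220, 223 and 210 CPM among controls and 228, 300, 249, 313 and 106 CPM in treated livers. The low libraries were vehicle replicate 1 and napabucasin replicate 5, and the log2 fold change was 0.20 (SE 0.33, 95% interval -0.52 to 0.91). That value was -0.02 without vehicle replicate 1 and 0.38 without napabucasin replicate 5. Hepcidin acts on the protein, which these counts do not measure.

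Ferroportin is abundant in Kupffer cells, the iron-recycling macrophages of the liver, and markers of these cells were lowest in the same libraries. Summed over 9 Kupffer cell genes, all detected, the level was 362 CPM in vehicle replicate 1 and 724 CPM in napabucasin replicate 5. The other 8 libraries lay between 1049.6 and 2596 CPM, and all 9 genes had fitted differences above 0 between the groups. Hamp2 was highest in those 2 libraries, at 539 and 362 CPM, and Slc40a1 lowest, at 84.7 and 106 CPM. The haemoglobin gene Hbb-bs was also highest there, at 58.7 and 74.2 CPM, against 4.68 to 38.8 CPM elsewhere. The part of cell composition in the Slc40a1 and Hamp2 values was not tested.

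**Figure D2:**
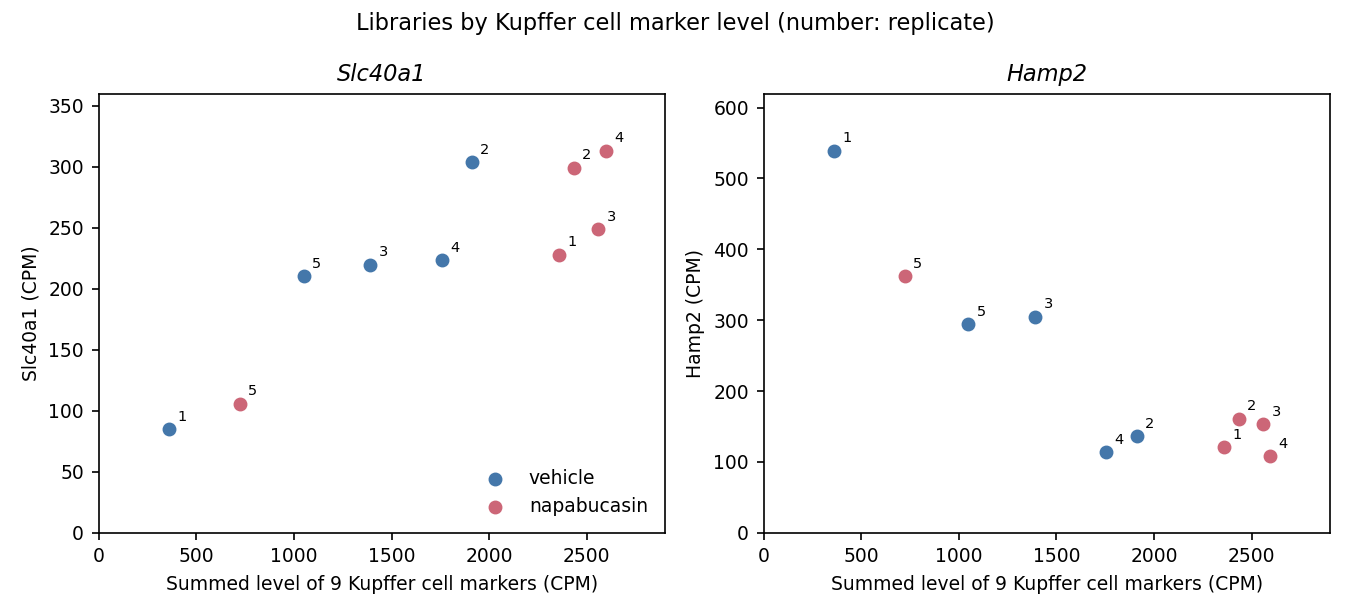
Slc40a1 (left) and Hamp2 (right) in CPM against the summed CPM of 9 Kupffer cell markers, 1 point per library, numbered by replicate. Vehicle replicate 1 and napabucasin replicate 5 have the lowest marker sums, 362 and 724 CPM, with the lowest Slc40a1 and the highest Hamp2.

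No member passed an adjusted p of 0.05 by edgeR's quasi-likelihood test, as 0 of all 14244 genes did (0.00%). At an unadjusted p under 0.05 that test gave 2 members lower, Hamp and Id1, where 5.83% of all genes were lower, and 1 higher, Tfrc, where 9.34% were higher. No member had groups without overlap. Between same-numbered libraries, Hamp and Id1 were lower in the treated library in 5 of 5 pairs, as were 9.72% of all genes, and Tfrc was higher in 5 of 5, as were 9.62%. The other seven members went both ways. The edgeR adjusted p was 0.185 for Hamp, 0.227 for Id1 and 0.259 for Tfrc, and 0.482 or more for the other seven. DESeq2 called Hamp (DESeq2 adjusted p = 0.00387) and no other member, and 1.77% of the 13682 genes with an adjusted p there. Since Hamp led to the choice of the set, these values are given for orientation only. The labels do not say that the mice came from separate litters or cages, and the p-values reflect how these libraries vary.

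**Figure D3:**
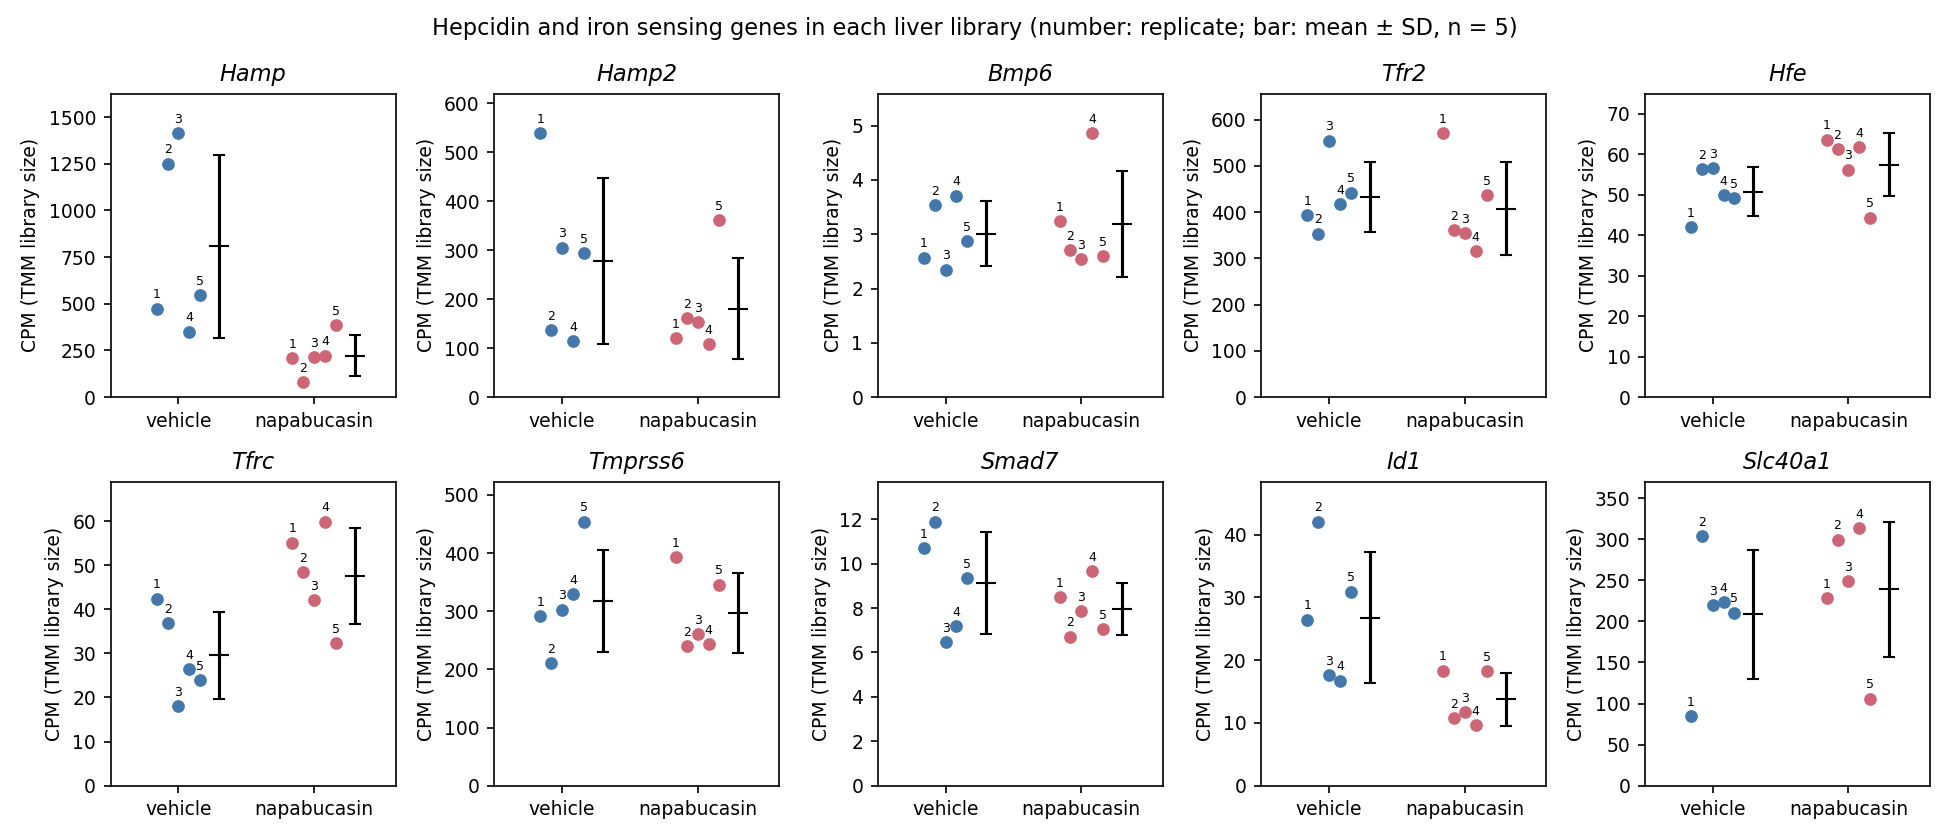
CPM of the 10 members in every library (points, numbered by replicate) with the mean ± SD of each group of 5 beside them. Hamp and Id1 sit lower and Tfrc higher in the napabucasin group, each with some overlap, and the remaining panels show overlapping groups.

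**Figure D4:**
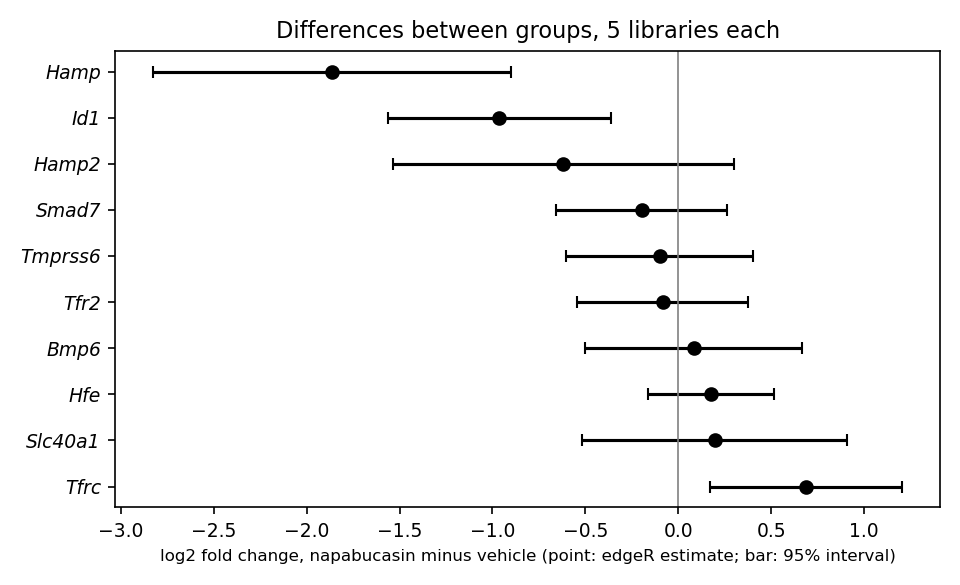
Log2 fold change of each member, napabucasin minus vehicle (points), with its 95% interval from the edgeR fit (bars). The intervals of Hamp (-2.83 to -0.90), Id1 (-1.56 to -0.36) and Tfrc (0.17 to 1.21) leave out 0 before adjustment over all genes, and the other seven include it.

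The rest of the pathway was read from 8 lists of 140 gene names in all, members left out, of which 125 were tested. None of the 125 passed an adjusted p of 0.05 by edgeR, nor any of the 124 with an adjusted p by DESeq2. With quality weights, limma-voom called 2 of the 125, Slc25a37 (higher) and Glrx5 (lower), and 156 of all 14244 genes. At an unadjusted p under 0.05 edgeR gave 10 of the 125 higher (8.0%, against 9.34% of all genes) and 9 lower (7.2%, against 5.83%). Groups did not overlap for 1 gene on the higher side, Epor, and 1 on the lower, Cebpa, where 1.21% and 0.934% of all genes did so. These shares lie near those of all genes. The median log2 fold change of the 125 was -0.13 and 78 (62.4%) lay below 0, against a median of 0.00 and 49.9% over all genes tested.

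**Figure D5:**
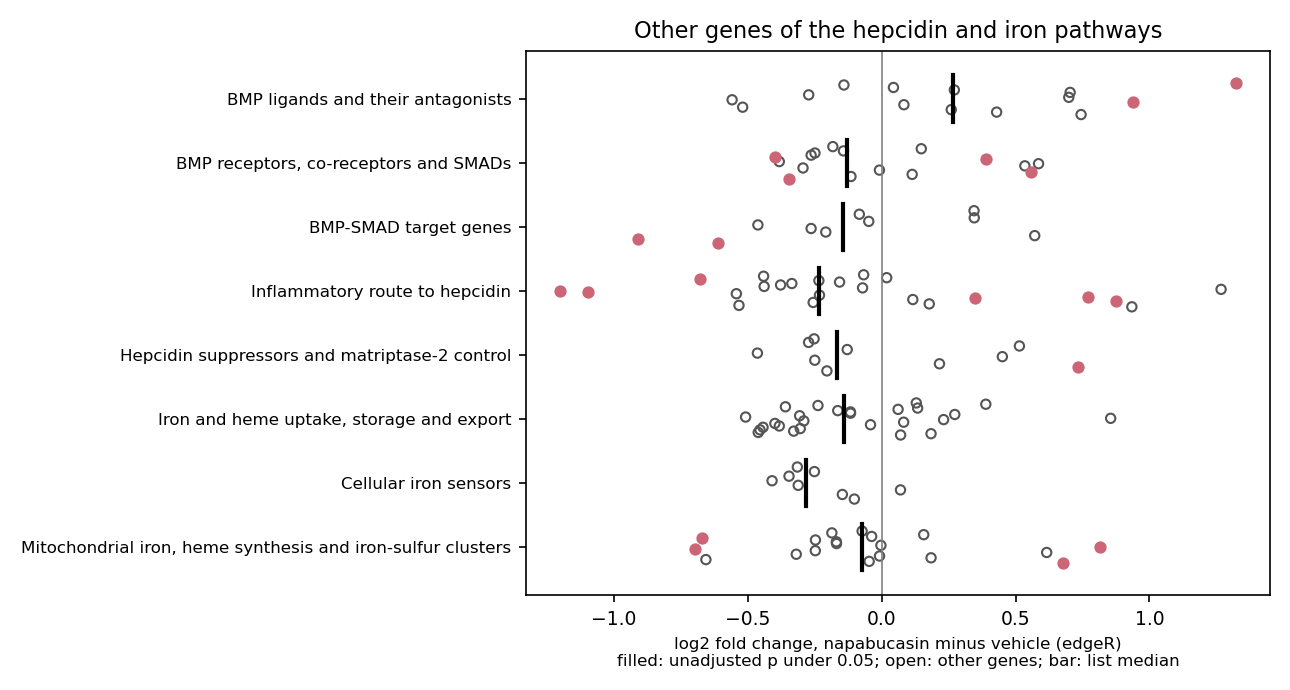
Log2 fold change, napabucasin minus vehicle, of the tested genes of 8 pathway lists (circles, filled at an unadjusted edgeR p under 0.05), with each list's median as a bar. List medians lie between -0.28 (cellular iron sensors) and 0.27 (BMP ligands and their antagonists).

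BMP ligands and antagonists other than Bmp6 did not measure lower as a list: 10 of 14 tested genes lay above 0, with a median of 0.27. At p under 0.05 without adjustment 2 were higher and 0 lower, where 9.34% and 5.83% of all genes were. Over all genes 49.9% lay below 0. Gdf2, which encodes BMP9 and is made by stellate cells, measured 14.14 ± 1.73 CPM among controls and 27.1 ± 16.5 CPM in treated livers (SD, n = 5 each). Its log2 difference of 0.94 (SE 0.31, edgeR adjusted p = 0.251) was 0.51 without napabucasin replicate 4, which stood at 55.0 CPM. All 6 stellate cell markers had fitted differences above 0, with sums of 93.7 to 189 CPM in vehicle and 182 to 322 CPM in napabucasin libraries. Napabucasin replicate 4 had the highest of these sums and 73.8 CPM of Lrat, a stellate gene of vitamin A storage at 16.9 to 24.9 CPM in the other treated libraries, and the part of these cells in the Gdf2 difference was not tested. Bmp2, an endothelial ligand that also controls Hamp, measured 6.43 ± 5.65 and 10.7 ± 2.44 CPM, with a fitted log2 difference of 0.74 (SE 0.48) that was 1.32 without vehicle replicate 1 and 0.48 without vehicle replicate 3. Gdf15, a stress cytokine of the same superfamily, ran from 16.2 to 185 CPM among controls and from 106 to 385 CPM in treated livers (log2 fold change 1.32 with SE 0.61, edgeR adjusted p = 0.328). Inhba, the activin A subunit, had a log2 fold change of -0.56, or -0.30 without vehicle replicate 2, and the BMP antagonist Chrd 0.70, or 0.40 without napabucasin replicate 1 and 1.08 without vehicle replicate 2.

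Of 16 tested receptors, co-receptors and SMADs, 2 measured higher and 2 lower before adjustment (p under 0.05), with a list median of -0.13. Over all genes 9.34% were higher and 5.83% lower at that threshold. The receptor SMADs went opposite ways: Smad1 measured 20.3 ± 3.37 and 26.6 ± 4.00 CPM (log2 fold change 0.39, SE 0.17) and Smad5 26.2 ± 5.57 and 19.9 ± 2.58 CPM (-0.40, SE 0.18). The type I receptor gene Bmpr1a measured 33.9 ± 3.21 and 26.7 ± 3.95 CPM (-0.34, SE 0.15), and the endothelial receptor Acvrl1 7.35 ± 1.56 and 10.9 ± 3.19 CPM (0.56, SE 0.25). The edgeR adjusted p of these 4 lay between 0.315 and 0.326. Hfe2, the gene of hemojuvelin, measured 127 ± 49.3 and 190 ± 99.8 CPM, with a fitted log2 difference of 0.59 (SE 0.35), and 0.00 without the 3 libraries with the highest rRNA share.

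Other BMP-SMAD target genes were mixed. Of 10 tested, 7 lay below 0, with a median of -0.15, where 49.9% of all genes lay below 0. Id2 and Id3 were lower at p under 0.05 without adjustment, as were 5.83% of all genes. Id2 measured 170.0, 248, 142, 131 and 98.4 CPM among controls and 117, 123, 84.3, 93.0 and 99.6 CPM in treated livers (log2 fold change -0.61 with SE 0.24, edgeR adjusted p = 0.284), or -0.38 without vehicle replicate 2. Id3 had a log2 fold change of -0.91 (SE 0.42) that rested on vehicle replicate 2, at 307 CPM against 52.3 to 86.4 CPM in the other vehicle libraries, and it was -0.12 without that library. Atoh8, a transcription factor that follows hepatic iron and BMP signals, measured 36.1 ± 5.38 and 26.2 ± 9.55 CPM (-0.46, SE 0.24). Smad6, the other inhibitory SMAD induced by BMP, measured 6.12 ± 3.11 and 5.29 ± 2.41 CPM (-0.21, SE 0.39), and Hes1 17.7 ± 5.604 and 22.6 ± 10.04 CPM. Smad6 changed sign without vehicle replicate 1 (0.01) and with limma-voom (0.28).

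The inflammatory route to Hamp held 3 genes higher and 3 lower at p under 0.05 without adjustment among 23 tested, with a median of -0.23. The shares over all genes were 9.34% higher and 5.83% lower. Saa1 and Saa2, acute phase proteins induced by STAT3 and near-identical copies whose separate counts are uncertain, were high in the control livers in which Hamp was high. Saa2 measured 2286, 8522, 13710, 2908 and 2255 CPM among controls and 1046, 2443, 2405, 5297 and 1717 CPM in treated livers (log2 fold change -1.20, SE 0.55), or -0.63 without vehicle replicate 3. Vehicle replicates 2 and 3 were the 2 highest of all 10 libraries in Saa2, as they were in Hamp. Among treated libraries napabucasin replicate 4 was highest in Saa2, while replicate 5 was highest in Hamp.

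Socs3, the feedback inhibitor induced by STAT3, was highest in vehicle replicate 2 (148 CPM, against 11.5 to 50.8 CPM in the other vehicle libraries), with a log2 fold change of -0.54 (SE 0.67) that turned to 0.44 without it. Stat3 had a log2 fold change of -0.23 (SE 0.20), or -0.11 without vehicle replicate 3, and the receptor gene Il6ra, at 29.9 ± 14.4 and 20.7 ± 7.55 CPM, one of -0.53 (SE 0.33), or -0.26 without vehicle replicate 5. Il6 itself stayed at or under 0.281 CPM in every library. Cebpa, a hepatocyte factor required for Hamp transcription, measured 172, 177, 209, 187 and 221 CPM among controls and 62.2, 111, 145, 160 and 126 CPM in treated livers, with no overlap (log2 fold change -0.68 with SE 0.23, edgeR adjusted p = 0.256), or -0.44 without the 3 libraries with the highest rRNA share. Creb3l3, another hepatocyte activator of Hamp, had a log2 fold change of -0.23 (SE 0.29), or -0.06 without vehicle replicate 5. On the higher side lay Il10rb (0.87, SE 0.27), a subunit of the interleukin 10 and 22 receptors, and the Janus kinase gene Tyk2 (0.77, SE 0.26), which was 0.33 without the 3 libraries with the highest rRNA share.

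Suppressors of Hamp and controls of matriptase-2 gave 1 of 10 tested genes higher and 0 lower at p under 0.05 without adjustment, against 9.34% and 5.83% of all genes. That gene, the erythropoietin receptor Epor, measured 2.39, 1.88, 1.78, 0.899 and 2.08 CPM among controls and 2.81, 3.41, 2.88, 3.04 and 2.81 CPM in treated livers, with no overlap (log2 fold change 0.73 with SE 0.29, edgeR adjusted p = 0.293). Erfe, the erythroblast hormone that lowers Hamp by binding BMPs, was counted in 1 library only, at 0.144 CPM, and was not tested. Fgl1, a hepatokine reported to act in the same way, measured 1648 ± 634 and 1430 ± 509 CPM (-0.20, SE 0.31), or 0.02 without vehicle replicate 3, -0.44 without napabucasin replicate 3 and 0.11 with limma-voom. Spint1 and Hgf had log2 fold changes of -0.46 (SE 0.28) and 0.51 (SE 0.35), Spint1 being -0.30 without vehicle replicate 4 and Hgf 0.19 without napabucasin replicate 4, and the protease gene Pcsk7 0.45 (SE 0.28), or 0.02 without the 3 libraries with the highest rRNA share.

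Iron handling genes gave no gene past even the unadjusted threshold. Among 26 genes of iron and heme uptake, storage and export, 0 reached an unadjusted p under 0.05 in either direction, and the median was -0.14. Over all genes 9.34% were higher and 5.83% lower at that threshold. Transferrin (Trf) measured 1936 ± 515 and 2034 ± 389 CPM, with a fitted log2 difference of 0.07 (SE 0.25). The ferritin chains, which store iron, measured 1986 ± 254 and 1525 ± 492 CPM for Fth1 (-0.38, SE 0.25) and 2249 ± 314 and 2186 ± 393 CPM for Ftl1 (-0.04, SE 0.21), and the heme-degrading Hmox1 had -0.12 (SE 0.45). Each of Trf, Ftl1 and Hmox1 changed sign when 1 library was left out, and Fth1 was -0.23 without napabucasin replicate 1. Of the 26, the smallest p-values belonged to Steap2 (-0.45), Slc46a1 (-0.51), Heph (0.86) and Slc39a8 (-0.33), with edgeR adjusted p from 0.350 to 0.434. Of 8 cellular iron and oxygen sensors 7 lay below 0, where 49.9% of all genes did, and 0 reached an unadjusted p under 0.05. Among the 7 were Hif1a (-0.31), Epas1 (-0.41), Egln1 (-0.35) and Egln2 (-0.25). Epas1 was -0.26 without vehicle replicate 5, Egln1 -0.19 without napabucasin replicate 1, and Egln2 -0.15 without vehicle replicate 5 and -0.43 without vehicle replicate 1.

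Genes that use iron in mitochondria held the smallest p-values of all 8 lists, 2 higher and 2 lower before adjustment (p under 0.05) among 19 tested. Of all genes 9.34% were higher and 5.83% lower at that threshold. Slc25a37, mitoferrin 1, which imports iron into mitochondria, measured 60.4, 45.8, 41.4, 41.3 and 37.8 CPM among controls and 99.9, 70.3, 68.0, 52.0 and 72.7 CPM in treated livers. Only napabucasin replicate 4 lay within the vehicle range (log2 fold change 0.68 with SE 0.20, edgeR adjusted p = 0.227, limma-voom adjusted p = 0.0472). Glrx5, which hands on iron-sulfur clusters, measured 43.7, 52.2, 76.0, 60.9 and 58.9 CPM among controls and 25.9, 32.2, 36.6, 44.1 and 44.3 CPM in treated livers. Only vehicle replicate 1 overlapped the treated libraries (-0.67, SE 0.20, edgeR adjusted p = 0.228, limma-voom adjusted p = 0.0488). The heme synthesis genes Ppox and Cpox lay on opposite sides, at 0.81 (SE 0.29) and -0.70 (SE 0.26). That of Ppox was 0.43 without the 3 libraries with the highest rRNA share, and that of Cpox -0.42 without vehicle replicate 5.

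Library by library, the other members had correlations with Hamp from -0.34 to 0.38. After each group's mean was subtracted from log2 CPM, the Pearson correlation with Hamp over the 10 libraries was 0.38 for Id1 (Spearman 0.21), 0.25 for Tfr2, 0.17 for Hamp2, 0.11 for Smad7, -0.09 for Bmp6 and -0.34 for Tfrc. These are descriptions of libraries that share sequencing and scaling. Without the 2 libraries farthest from the median in Hamp, vehicle replicate 4 and napabucasin replicate 2, the correlation was 0.05 for Id1, 0.18 for Tfr2, -0.13 for Hamp2, -0.45 for Smad7, -0.08 for Bmp6 and -0.54 for Tfrc. By the same measure the non-member genes most like Hamp, among those with a mean of at least 1 CPM, were Rnf220 (0.95), Pcnx4 (0.93), Dhx58 (0.92), Gm4890 (0.89) and Gm45133 (0.88), and the least like were 4931406P16Rik (-0.91), Etv1 (-0.89) and Ppig (-0.88). They were picked as the extremes of many genes over 10 libraries, and 3.85% of tested genes lay above 0.5. Gm4890 and Gm45133 fell to 6 and 4 reads in napabucasin replicate 2, and Etv1 to 1 read in vehicle replicate 3. Rnf220, a ubiquitin ligase gene, spanned only 23.8 to 29.4 CPM over all libraries, whereas Hamp spanned 79.0 to 1414 CPM. Dhx58, an interferon-induced RNA sensor, lay higher in the treated group (log2 fold change 0.55, SE 0.20), on the other side from Hamp.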

How the data were processed

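Counts per gene were deposited by the authors as whole numbers, not normalized, and their FPKM values divide those counts by gene length and by a depth holding a factor between libraries, as the ratio of the deposited tables shows. CASAVA, HISAT2 2.0.5, featureCounts 1.5.0-p3 and build GRCm38 (mm10) are named in the submitters' processing notes. Strand setting, annotation release and treatment of multi-mapped reads: not given in the sources used here. The count table was tested in R 4.3.3 with edgeR 4.0.16 (filterByExpr, TMM, robust quasi-likelihood F test on treatment, Benjamini-Hochberg adjustment over 14244 genes, threshold 0.05), and the common biological coefficient of variation was 0.325. Standard errors are those implied by F. FPKM served for levels per length. DESeq2 1.42.0, limma 3.58.1 (voom with quality weights, and log2(FPKM + 1) or log2(FPKM + 0.1)), other scalings and filters, a replicate block, and each library left out were alternatives. The procedure was run on simulated counts with independent libraries, as a check of the code only. That simulation held no pairing and no differences in cell composition or RNA quality, and no result rests on it.

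The members and gene lists were chosen with earlier results of these data known. Named genes are the 10 members, 17 regulators named whatever their values, up to 4 genes of smallest p per list, and the genes most and least like Hamp. Hemojuvelin and erythroferrone are listed in the table as Hfe2 and Erfe. Libraries with equal replicate numbers had correlated deviations from their group's mean, at 0.154, 0.227, 0.208, 0.270 and 0.278 for replicates 1 to 5, all above 0.1. Of the 10 libraries, 6 correlated best with the library of their own number in the other group. The labels do not say what equal numbers share, so the pairing is uncertain. The fit reported did not use it, and the replicate block was an alternative.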

Additional observations from a re-analysis of the deposited data

Results flagged for a closer look

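In groups of 5, the gap between the highest or lowest library and the nearest other was compared with the whole range, with a critical ratio of 0.71. Of 140 groups examined 10 exceeded it. About 7 would do so by chance if values were normally distributed and groups independent. The groups share the same 10 libraries, so that number is only a rough guide. Napabucasin replicate 5 stood apart from the other treated libraries in Hamp2 (361.8 CPM against 108 to 161, ratio 0.791), in summed Hamp and Hamp2 (746.9 CPM against 240.1 to 367, ratio 0.750) and in its Kupffer marker sum (724.1 CPM against 2357 to 2596, ratio 0.872). For vehicle replicate 1 the same held of the share of mitochondrial counts (19.02% against 7.03% to 8.78%, ratio 0.854), the erythroid marker sum (194.7 CPM against 17.1 to 55.4, ratio 0.784) and Egln2 (25.22 CPM against 52.5 to 63.2, ratio 0.720). Vehicle replicate 2 was high in Id3 (306.8 CPM, ratio 0.866) and Socs3 (147.7 CPM, ratio 0.711). Vehicle replicate 5 was high in Cpox (156.7 CPM, ratio 0.772), and napabucasin replicate 2 in Spint1 (4.328 CPM, ratio 0.731).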

How the results depend on the processing

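The Hamp log2 fold change kept its sign in all 22 alternatives run, between -2.16 (without napabucasin replicate 5) and -1.33 (without the 3 libraries with the highest rRNA share, chosen after the data were seen), and was -1.76 with the replicate block. Leaving out 1 library gave -2.16 to -1.56. One member, Hamp, was called by DESeq2, and 0 in the other alternatives, the replicate block included. Of the other pathway genes 2 were called by limma-voom and 0 otherwise. The replicate block changed no call. Over all genes the count was 0 in the fit reported and with the replicate block, 242 with DESeq2, 156 with limma-voom, 19 with no filter, 1 with library size only, 1 on log2(FPKM + 0.1), 7 without the 2 libraries of highest mitochondrial share (chosen after the data were seen) and 0 to 18 with 1 library left out, 18 being without vehicle replicate 1 and 3 without napabucasin replicate 5. At an unadjusted p under 0.05 the pathway genes gave 10 higher and 9 lower as reported, 16 and 14 with the replicate block, 14 and 21 with limma-voom, 12 and 22 without vehicle replicate 1, 10 and 3 with library size only, 9 and 3 without napabucasin replicate 3, and 5 and 3 without the 3 libraries with the highest rRNA share. Of 62 named genes with a fit, 41 had a log2 fold change that moved by over 1.5 times or changed sign in at least 1 fit with 1 library left out (11 changed sign), and 35 did so without the 3 libraries with the highest rRNA share. The cause of these changes was not tested. Erfe and Il6 lie close to the lowest levels that this depth resolves, and Bmp6 is low, at 30 to 91 reads in a library.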
